A study of Mus musculus with 6 samples.

Results

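Genes of interleukin-6 (IL-6) family signalling, 10 in number, were followed through single-cell RNA sequencing of mouse back skin: the ligands Il6, Osm and Lif, the receptor chains Il6ra, Il6st and Osmr, the kinase Jak1, the transcription factor Stat3 and the inhibitors Socs3 and Socs1. They were taken by symbol, and all 10 of the 10 symbols were found among the 31053 genes of the count matrices. The study compared 3 groups of 2 libraries each from female C57BL/6 mice of 8 to 10 weeks. Sham mice were left untreated and are called normal in the labels, IMQ mice received 62.5 mg of 5% imiquimod cream on the shaved back each day for 4 days, and IMQ+SHP099 mice received the same cream together with SHP099, which blocks the phosphatase SHP2 by binding away from its active site, by gavage at 10 mg/kg daily over those 4 days. Each library pooled the skin of several mice, so n = 2 libraries per group, and p-values describe the spread between libraries.

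Imiquimod cream activates Toll-like receptor 7 and produces a psoriasis-like inflammation in mouse skin. Cytokines of the IL-6 family bind a receptor that contains the shared chain gp130, encoded by Il6st: IL-6 pairs it with Il6ra, oncostatin M with Osmr, and LIF with the LIF receptor. The bound receptor activates Janus kinases such as JAK1, which phosphorylate STAT3, and STAT3 in turn induces Socs3, whose product shuts the receptor down. SHP2 binds phosphorylated gp130 and couples it to the Ras and ERK pathway.

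The promoters of 9 of the 10 members could be read from RefSeq (GRCm38.p6), as the 250 bases before and 50 bases after a gene's start, and these 9 windows were searched on both strands for 2 motifs. The STAT motif TTCNNNGAA occurred in 1 of the 9 windows and in 8.30% of all 32851 promoter windows. The NF-kB motif, GGG and TTTCC with any 2 bases between them, occurred in 1 of the 9 windows and in 1.63% of all windows. These matches are letters in a window, not measured binding sites. The windows of Socs3, the feedback inhibitor, and of Il6, the founding cytokine, are printed because they are the ones that hold a match, which stands in capitals.
Socs3, chr11:117969317-117969616, minus strand, STAT match at chr11:117969512-117969520: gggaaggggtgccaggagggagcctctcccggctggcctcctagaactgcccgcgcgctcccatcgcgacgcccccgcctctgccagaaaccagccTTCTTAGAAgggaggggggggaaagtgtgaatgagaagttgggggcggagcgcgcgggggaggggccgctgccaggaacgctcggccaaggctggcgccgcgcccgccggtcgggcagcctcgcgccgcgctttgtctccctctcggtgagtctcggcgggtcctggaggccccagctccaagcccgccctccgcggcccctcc
Il6, chr5:30012864-30013163, plus strand, NF-kB match at chr5:30013070-30013079: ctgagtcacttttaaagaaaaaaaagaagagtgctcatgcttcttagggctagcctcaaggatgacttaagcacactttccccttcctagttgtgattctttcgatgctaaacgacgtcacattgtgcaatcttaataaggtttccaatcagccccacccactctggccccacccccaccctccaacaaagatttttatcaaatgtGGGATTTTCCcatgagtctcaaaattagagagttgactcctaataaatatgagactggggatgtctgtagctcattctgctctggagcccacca

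The STAT match of Socs3 began 154 bases before the RefSeq start, inside the span that the GENCODE annotation gives the gene (chromosome 11, 117966079 to 117970047, minus strand). The NF-kB match of Il6 began 44 bases before its start, outside the gene (chromosome 5, 30013114 to 30019981, plus strand). Osm (4236420 to 4241026) and Lif (4257557 to 4272514) lie beside each other on the plus strand of chromosome 11, which also carries Stat3 (100885098 to 100939540, minus strand). The other members lie on chromosome 3 (Il6ra, 89864059 to 89913196), 13 (Il6st, 112464070 to 112510086), 15 (Osmr, 6813577 to 6874969), 4 (Jak1, 101152367 to 101265282) and 16 (Socs1, 10782240 to 10785536).

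Of 55201 deposited cell barcodes, 50850 were kept by the limits on UMIs, genes and mitochondrial share that the study states, a number that differs from the cell count of the study. The libraries held 53913865 to 188283327 unique molecular identifiers (UMIs), the count of captured RNA molecules. The median kept cell had 5645 to 18263.5 UMIs, with both the lowest and the highest value in the IMQ+SHP099 group. Cells were clustered and named from marker genes, and 294 cell barcodes occurred in more than 1 library, 12 to 30 in each pair of libraries. The clusters that made up a class differed between groups: the keratinocyte clusters led by Fcgbp and Mt4 held 2609, 479 and 1571, 383 Sham cells and no IMQ cell, and the fibroblast cluster led by Coch held 21 and 62 Sham cells against 1445 and 1526 IMQ cells. A level is given below in CPM, the UMIs of the gene for every 1000000 UMIs of the class in 1 library, in the order replicate 1, replicate 2. A lower level in such a sum can come from fewer cells that use the gene or from less RNA per cell, and these cannot be told apart in it.

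**Figure D1:**
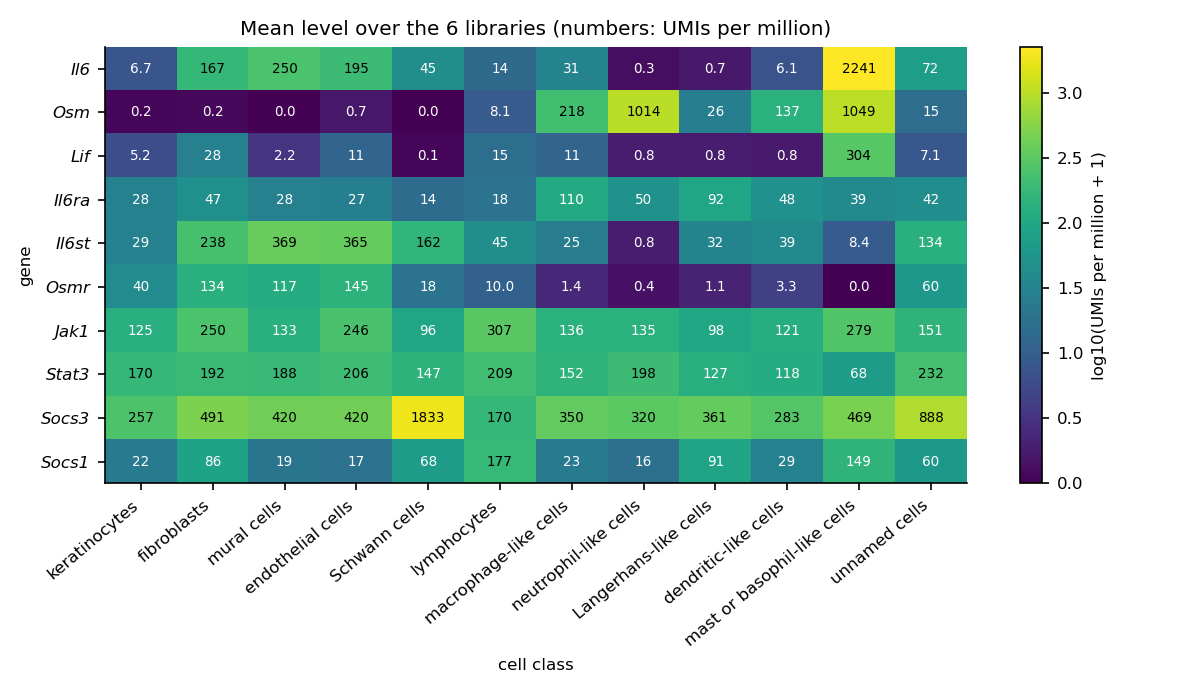
Mean level of the 10 members (rows) in 12 cell classes (columns) over the 6 libraries, in CPM printed in each cell, with a colour scale of log10(CPM + 1). Il6, Osm and Lif reached 2241, 1049 and 304 in mast or basophil-like cells, Osm was at 0 in mural and Schwann cells, and Socs3 reached 1833 in Schwann cells.

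Each of the 3 ligands had its highest mean level in mast or basophil-like cells. A list of 10 immediate-early and heat-shock genes summed there to 29802 to 86326 CPM over the libraries. It summed to 6289 to 35324 in neutrophil-like cells and 7173 to 12732 in keratinocytes. The part of this list in the ligand levels was not tested. Il6 averaged 2241 CPM in mast or basophil-like cells, followed by mural cells at 250, endothelial cells at 195 and fibroblasts at 167. The order of the last 3 classes was not resolved, since their levels over the 6 libraries ranged from 70.9 to 894 in mural cells, from 91.2 to 398 in endothelial cells and from 53.7 to 266 in fibroblasts. Osm, which encodes oncostatin M, stood at 1049 in mast or basophil-like, 1014 in neutrophil-like, 218 in macrophage-like and 137 in dendritic-like cells, with no UMI in the mural or Schwann cells of any library. The Osm levels of these myeloid classes overlapped from library to library, for example 395 to 2239 in neutrophil-like and 421 to 1446 in mast or basophil-like cells. Lif, the leukaemia inhibitory factor, averaged 304 in mast or basophil-like cells and 28 in fibroblasts, and 0.1 to 15 in the other named classes. Mast or basophil-like cells numbered 6 to 52 per library, and the 12 of Sham replicate 1 had no Lif UMI.

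Osmr, the chain that joins gp130 in a receptor of oncostatin M, averaged 145 in endothelial cells, 134 in fibroblasts, 117 in mural cells and 40 in keratinocytes. Its levels in the first 3 classes overlapped (121 to 223, 67.3 to 193 and 73.6 to 199), and those of keratinocytes (22.7 to 60.0) lay below all of them. In macrophage-like cells Osmr averaged 1.4, and mast or basophil-like cells had no UMI of it. Il6st was highest in mural and endothelial cells at 369 and 365, with ranges of 219 to 633 and 257 to 645 that covered each other, and 0.8 in neutrophil-like cells. Il6ra, the chain that binds IL-6 itself, was highest in macrophage-like cells at 110 and Langerhans-like cells at 92, with overlapping ranges of 89.7 to 152 and 59.2 to 170.3.

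Jak1, the kinase of the receptor complex, and Stat3 varied least among the classes. The mean Jak1 level lay between 96 in Schwann cells and 307 in lymphocytes. That of Stat3 lay between 68 in mast or basophil-like and 209 in lymphocytes among the named classes. Socs3 averaged 1833 in Schwann cells, where the 6 libraries ranged from 1355 to 3080.0 and lay above every library of fibroblasts (336 to 639), the named class with the next highest mean of 491. The list of 10 immediate-early and heat-shock genes summed to 19446 to 31403 CPM in Schwann cells and to 9725 to 31210 in lymphocytes. Its part in the Socs3 level of Schwann cells was not tested. Socs1, the inhibitor induced by interferons as well as by IL-6 family cytokines, was highest in lymphocytes at 177 (99.2 to 229.5) and mast or basophil-like cells at 149 (66.3 to 237), which overlapped.

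Most Il6 UMIs came from fibroblasts and most Osm UMIs from myeloid cells in each library. Fibroblasts supplied 52.2% and 54.4% of the Il6 UMIs of Sham, 68.7% and 69.5% of those of IMQ, and 60.5% and 79.0% of those of IMQ+SHP099. Myeloid cells supplied 70.4% and 87.7% of the Osm UMIs in Sham, 86.8% and 84.4% in IMQ, with 76.6% and 90.1% in IMQ+SHP099. These shares depend on how many cells of each class a library held, so they describe the libraries and were not tested.

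Il6 was high in a small group of cells within the mast or basophil-like class. The sub-cluster led by Mcpt8, a basophil protease gene, had 1 and 9 cells in Sham, 27 and 18 in IMQ, with 3 and 5 in IMQ+SHP099. Il6 stood there at 21358 and 9014 CPM in Sham, 2832 and 2992 in IMQ, with 2502 and 2995 in IMQ+SHP099, against 0 to 172 in the sub-cluster led by Mcpt4, a mast cell protease gene. Osm stood at 0 and 2677, 2355 and 1692, and 1925 and 1398 in the Mcpt8 cells, the 0 belonging to the library with a single such cell. In the Mcpt4 cells Osm stood at 479.6 and 131 in Sham, 46.9 and 71.8 in IMQ, with 0 and 0 in IMQ+SHP099, so Sham replicate 1 had its Osm UMIs in the Mcpt4 cells. With 1 to 9 Mcpt8 cells in 4 of the libraries no comparison between groups was made.

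The question of the IMQ against Sham comparison was which genes differ in inflamed skin, and it was run on UMI sums per library in 8 sums of cells: all cells, keratinocytes, fibroblasts, mural cells, endothelial cells, lymphocytes, myeloid cells and, within the last, macrophage-like cells. Of the 74 pairs of a member and a sum that passed the low-count filter, 7 had an adjusted p under 0.05 (edgeR quasi-likelihood test, Benjamini-Hochberg over all genes of the sum), 6 of them higher and 1 lower in IMQ. Over all genes and sums, 2.61% of 97758 tests were called. In keratinocytes 3 of 10 members were called, 2 of them higher, where 11.5% of 14369 genes were, 4.66% higher and 6.81% lower. In macrophage-like cells 4 of 9 members were called, all higher, where 9.27% of 8714 genes were, 4.02% of them higher. In fibroblasts 0 of 9 were called where 0.627% of 14353 genes were, in lymphocytes 0 of 10 where 0.0103% of 9748 genes were. The median log2 fold change of the tested members was 1.30 in macrophage-like cells and 0.36 in keratinocytes, beside -0.03 and -0.08 over all genes. Members that were tested had to pass a count filter, so these counts and medians describe them and support no statement on the list.

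**Figure D2:**
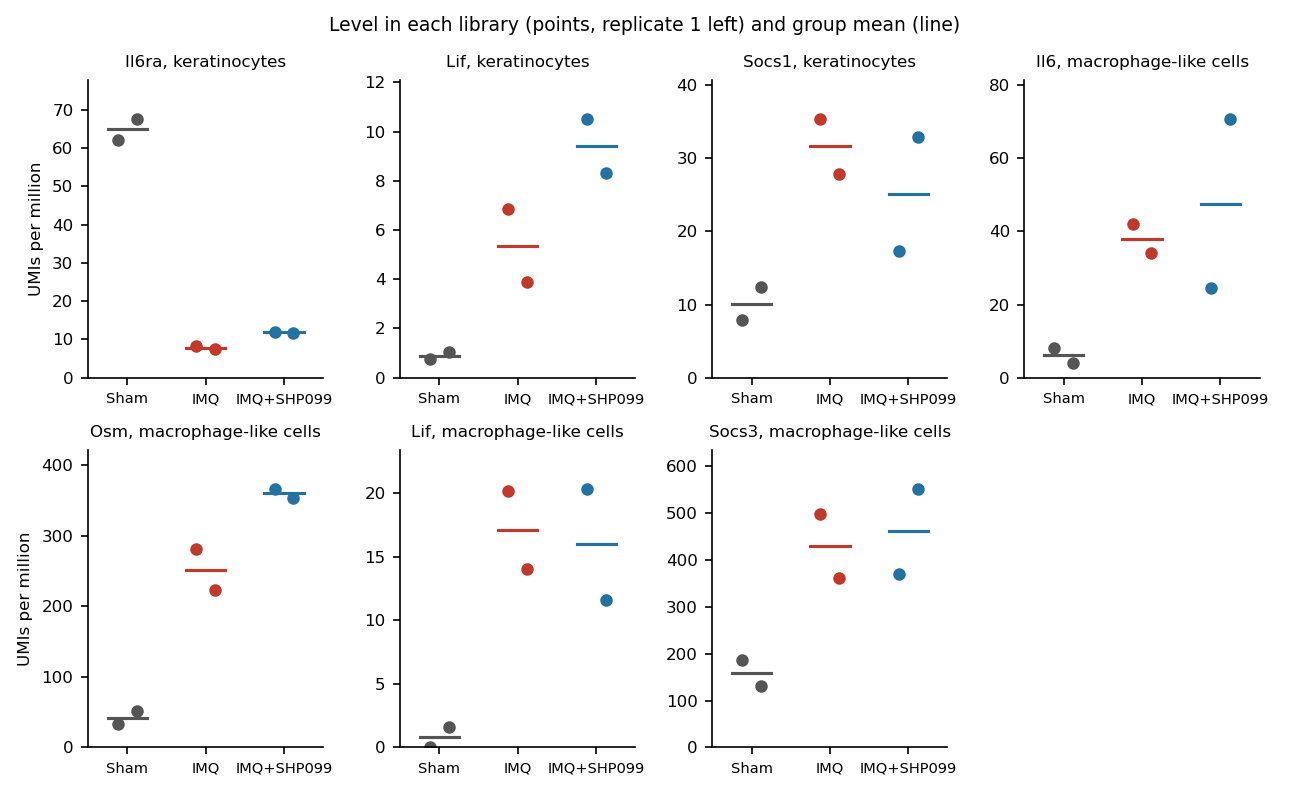
Level in each library (points, replicate 1 to the left) and group mean (line) in CPM for the 7 pairs called between IMQ and Sham. Il6ra in keratinocytes fell from 62.2 and 67.7 to 8.35 and 7.43, and in the other 6 pairs both IMQ libraries lay above both Sham libraries.

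Il6ra in keratinocytes was the one member called lower. Its level was 62.2 and 67.7 CPM in Sham, 8.35 and 7.43 in IMQ, with 11.97 and 11.8 in IMQ+SHP099. All 4 treated libraries lay far below both Sham libraries, with little spread within a group, and 62.8% of the genes of keratinocytes with a mean of at least 5 CPM had no overlap between IMQ and Sham in one direction or the other. Il6ra fell by 2.76 on the log2 scale in IMQ against Sham (SE 0.28, adjusted p = 0.00127, edgeR). The share of keratinocytes with an Il6ra UMI, after each cell was thinned to 2000 UMIs, was 12.01% ± 0.31 (SD, n = 2) in Sham, 1.29% ± 0.27 in IMQ, with 2.45% ± 0.097 in IMQ+SHP099, and 45.9%, 18.9% and 21.8% without thinning. No class lacked Il6ra, and Schwann cells, the named class with its lowest mean level, gave 0.94% to 3.98% as group means, so the shares of the treated keratinocytes were no higher than those. Thinning left out 26 to 228 keratinocytes per library.

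The lower Il6ra level went along with a change of keratinocyte clusters. The clusters led by Fcgbp and by Mt4, which held Sham cells, had Il6ra at 59.6, 107 and 81.6, 97.1 CPM in the 2 Sham libraries. The cluster led by Nppb, which held most of its cells in treated libraries, had 13.5 and 12.3 in IMQ, and the one led by Klk6 had 4.92 and 4.2. In the cluster led by Lhx2, which held 433 and 380 Sham and 90 and 136 IMQ cells, Il6ra stood at 5.52 and 5.40 in Sham and at 2.30 and 3.43 in IMQ. The list of 10 immediate-early and heat-shock genes summed in keratinocytes to 12562.5 and 12732 CPM in Sham, 8988 and 8021 in IMQ, with 7173 and 8398 in IMQ+SHP099. The part of the cluster makeup and of this list in the calls of Il6ra, Lif and Socs1 in keratinocytes was not tested.

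Lif in keratinocytes was higher in every treated library than in either Sham library. Its level was 0.77 and 1.02 CPM in Sham, 6.84 and 3.89 in IMQ, with 10.5 and 8.32 in IMQ+SHP099, from 33 to 1580 UMIs. The rise in IMQ against Sham was 2.90 on the log2 scale (SE 0.44, adjusted p = 0.00562, edgeR). The thinned share of keratinocytes with a Lif UMI was 0.16% ± 0.0055 in Sham, 1.52% ± 0.41 in IMQ, with 2.09% ± 0.36 in IMQ+SHP099, and Schwann cells, in which Lif was at 0 in 5 of 6 libraries, gave 0% to 0.18% as group means.

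Socs1 in keratinocytes stood at 7.87 and 12.4 CPM in Sham, 35.4 and 27.9 in IMQ, with 17.3 and 32.9 in IMQ+SHP099. Sham and IMQ did not overlap, while 1 IMQ+SHP099 library lay between them and the other within the IMQ range. Socs1 rose by 1.97 on the log2 scale in IMQ against Sham (SE 0.30, adjusted p = 0.00541, edgeR).

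In the class named macrophage-like, Il6, Osm, Lif and Socs3 were higher in IMQ than in Sham. The sub-clusters that made up the class differed between the groups, as given below. This class had 39 and 349 cells in Sham, 421 and 395 in IMQ, with 55 and 266 in IMQ+SHP099, and Sham replicate 1 gave it only 122696 UMIs, so that 3 UMIs there stand for 24.5 CPM. Osm was at 32.6 and 51.1 CPM in Sham, 281 and 223 in IMQ, with 367 and 353 in IMQ+SHP099. All 4 treated libraries lay several times above both Sham libraries, in a class where 50.9% of genes with a mean of at least 5 CPM had no overlap between IMQ and Sham. Osm rose by 2.71 on the log2 scale (SE 0.41, adjusted p = 0.0034, edgeR). The thinned share of cells with an Osm UMI was 6.73% ± 3.9 in Sham, 29.5% ± 4.0 in IMQ, with 35.3% ± 0.53 in IMQ+SHP099, beside group means of at most 0.096% in fibroblasts, and 8.01%, 49.6% and 43.6% without thinning.

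Il6 in macrophage-like cells was at 8.15 and 3.99 CPM in Sham (1 and 5 UMIs), 42.0 and 34.0 in IMQ, with 24.5 and 70.8 in IMQ+SHP099. Both Sham values rest on very few UMIs, and both IMQ libraries lay above them. The fitted rise of Il6 was 3.36 on the log2 scale (SE 0.66, adjusted p = 0.0116, edgeR). Lif was at 0 and 1.60 in Sham (0 and 2 UMIs), 20.2 and 14.0 in IMQ, with 20.4 and 11.6 in IMQ+SHP099. Its fitted rise of 3.77 (SE 0.76, adjusted p = 0.0129, edgeR) depends on the prior count that edgeR adds to a group with so few UMIs. Socs3 was at 187 and 131 in Sham, 498 and 362 in IMQ, with 371 and 553 in IMQ+SHP099, with no overlap between Sham and the treated libraries, and rose by 1.68 (SE 0.44, adjusted p = 0.0402, edgeR).

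**Figure D3:**
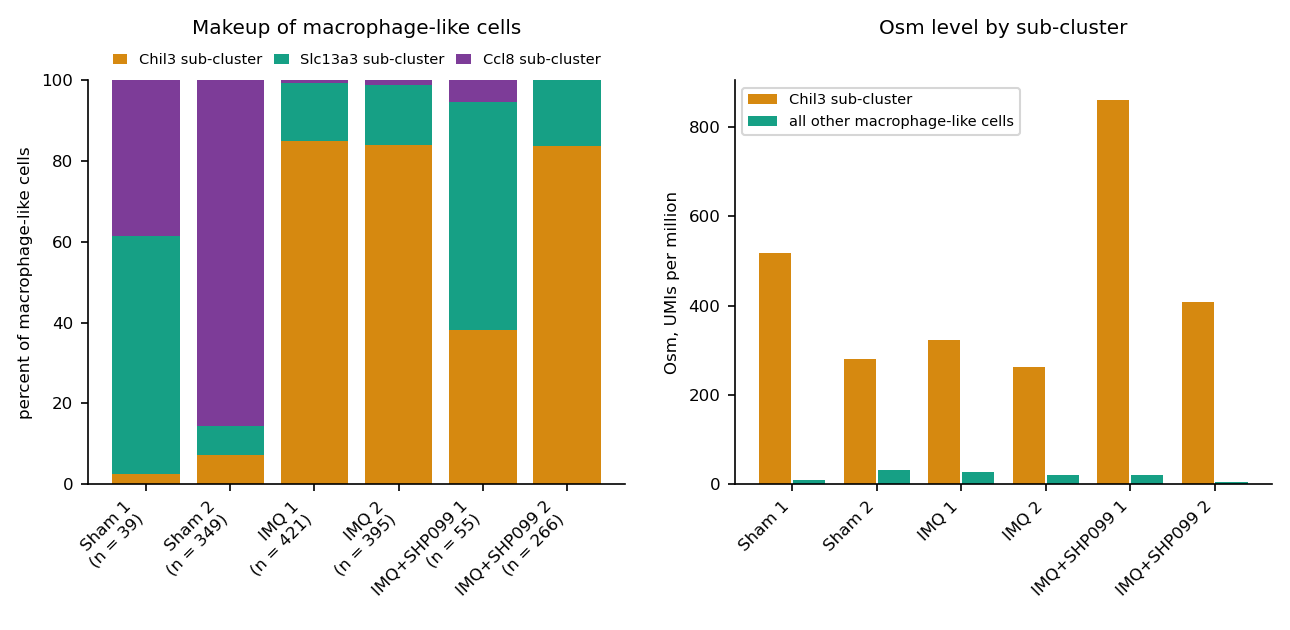
Left, percent of macrophage-like cells in the sub-clusters led by Chil3, Slc13a3 and Ccl8 in each library. Right, Osm level in CPM in the Chil3 sub-cluster and in all other macrophage-like cells of each library. The Chil3 sub-cluster made up 85.04% and 84.1% of the cells in IMQ and 2.56% and 7.16% in Sham, and held the higher Osm level in all 6 libraries.

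The macrophage-like class was made of different cells in the groups. A sub-cluster led by Chil3, Prtn3 and Vcan, with Plac8, Ly6c2 and Fn1 among its leading genes, had 1 and 25 cells in Sham, 358 and 332 in IMQ, with 21 and 223 in IMQ+SHP099. Of the macrophage markers 3 were raised in the Chil3 sub-cluster, against 9 in the Ccl8 and 7 in the Slc13a3 sub-cluster. The mean log2 fold of these markers in the Chil3 sub-cluster was -1.02 against the other myeloid cells. Its name as macrophage-like therefore rests on few markers. In the Chil3 sub-cluster Osm was at 519 and 281 CPM in Sham, 324 and 262 in IMQ, with 862 and 407 in IMQ+SHP099. In all other macrophage-like cells Osm was at 8.55 and 30.5, 27.4 and 20.4, and 20.8 and 4.79. Within either set of cells the Sham and IMQ levels of Osm overlapped, although a single Sham replicate 1 cell stands behind its value in the Chil3 sub-cluster.

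Socs3, Il6 and Lif were split in the same sub-clusters as follows. Socs3 was at 346 and 243 CPM in the Chil3 cells of Sham and 552 and 400 in those of IMQ, and at 180 and 121 against 176 and 168 in the other macrophage-like cells. Il6 in the Chil3 cells was at 0 and 0 in Sham and 49.2 and 37.5 in IMQ, and in the others at 8.55 and 4.35 against 0 and 15.9. Lif in the Chil3 cells was at 0 and 0 in Sham and 20.9 and 16.8 in IMQ, and in the others at 0 and 1.74 against 15.98 and 0. Without Sham replicate 2 all 4 pairs lost their call, with fitted log2 fold changes of 2.34 (SE 1.44) for Il6 and 7.72 (SE 3.60) for Lif, and without IMQ replicate 1 those of Il6, Lif and Socs3 did. Without the Chil3 sub-cluster the log2 fold change of Socs3 was 0.24 (SE 0.39, adjusted p = 0.824, edgeR), and Il6, Osm and Lif fell under the low-count filter. The list of 10 neutrophil markers summed to 48.9 and 110 CPM in the macrophage-like cells of Sham and 3203 and 8729 in those of IMQ, with 2 and 6 against 9 and 10 of its genes having a UMI. The 12 macrophage markers summed to 19365 and 18338 in Sham and 6295 and 6861 in IMQ. The part of this makeup in the 4 calls was not tested beyond these values.

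**Figure D4:**
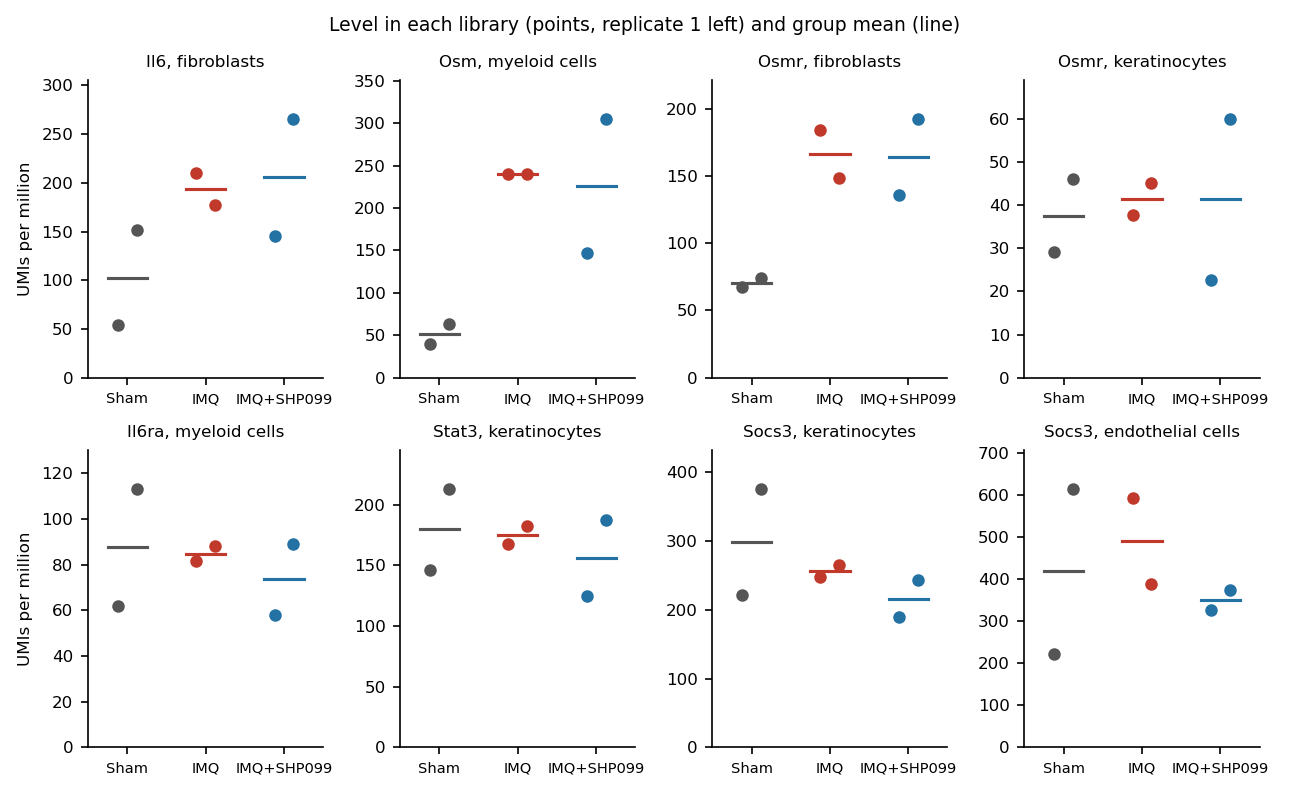
Level in each library (points, replicate 1 to the left) and group mean (line) in CPM for 8 pairs that were to be reported whatever they showed and were not called. For Osmr and Il6 in fibroblasts and Osm in myeloid cells both IMQ libraries lay above both Sham libraries. For Stat3 and Socs3 in keratinocytes the IMQ libraries lay between the Sham libraries.

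A further 8 pairs were to be reported whatever they showed, and none of them passed the threshold. Osmr in fibroblasts was at 67.3 and 73.8 CPM in Sham, 184 and 148 in IMQ, with 136 and 193 in IMQ+SHP099. The treated libraries all lay above the Sham libraries. Of the genes of fibroblasts with a mean of at least 5 CPM, 32% had no overlap between IMQ and Sham, in one direction or the other. The log2 fold change was 1.29 (SE 0.28) with an adjusted p of 0.101 (edgeR), in a sum where 90 genes were called. The thinned share of fibroblasts with an Osmr UMI was 12.8% ± 1.5 in Sham, 26.1% ± 3.9 in IMQ, with 25.6% ± 5.1 in IMQ+SHP099, beside at most 0.33% as a group mean in myeloid cells. Fibroblast clusters moved with the group here too. Osmr was at 33.6 and 40.3 in the few Sham cells of the cluster led by Coch and at 227 and 207 in its IMQ cells. In the cluster led by Smpd3, with 531 and 242 Sham and 299 and 1154 IMQ cells, it was at 54.0 and 66.8 against 109 and 115. The part of cluster makeup in the Osmr difference was not tested.

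Osm over all myeloid cells was at 39.3 and 63.4 CPM in Sham, 241 and 240.1 in IMQ, with 147 and 305 in IMQ+SHP099. All treated libraries lay above both Sham libraries, where 49.3% of genes had no overlap between IMQ and Sham, with a log2 fold change of 2.43 (SE 0.46, adjusted p = 0.189, edgeR) for IMQ, in a sum where 1 gene of 10937 (0.00914%) was called. In neutrophil-like cells, which numbered 5 and 10 in Sham and 147 and 304 in IMQ, Osm was at 2239 and 1116 in Sham and 395 and 458 in IMQ. Both Sham levels were thus the higher ones here, from very few cells.

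Il6 in fibroblasts was at 53.7 and 152 CPM in Sham, 210.4 and 178 in IMQ, with 146 and 266 in IMQ+SHP099. Both IMQ libraries lay above both Sham libraries, in a class where 32% of genes with a mean of at least 5 CPM had no overlap between IMQ and Sham. The Sham libraries differed from each other by more than Sham replicate 2 differed from the IMQ libraries. The log2 fold change was 1.05 (SE 0.42, adjusted p = 0.368, edgeR). In the Coch cluster Il6 was at 87.4 and 44.6 in Sham and 282 and 288 in IMQ, and in the Smpd3 cluster at 55.0 and 89.7 against 39.1 and 93.0. The thinned share of fibroblasts with an Il6 UMI was 12.1% ± 5.7 in Sham, 16.3% ± 1.1 in IMQ, with 15.7% ± 2.3 in IMQ+SHP099, while thinned neutrophil-like cells had none.

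The transducing genes showed no called difference in any of the 8 sums. Stat3 in keratinocytes was at 146 and 213 CPM in Sham, 167 and 182 in IMQ, with 124 and 188 in IMQ+SHP099. The IMQ values of Stat3 lay between the Sham values, with a log2 fold change of 0.27 (SE 0.27, adjusted p = 0.544, edgeR). Jak1 in keratinocytes was at 132 and 167 in Sham and 130.1 and 106 in IMQ, and in fibroblasts at 240.4 and 274 against 248 and 259.7. Il6st in keratinocytes was at 32.2 and 58.1 in Sham, 17.95 and 24.2 in IMQ, with 15.3 and 24.4 in IMQ+SHP099, a log2 fold change of -0.77 (SE 0.26, adjusted p = 0.0921, edgeR) for IMQ. All 4 treated libraries had less Il6st than either Sham library. Of the genes of keratinocytes with a mean of at least 5 CPM, 62.8% had no overlap between IMQ and Sham, in one direction or the other.

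Socs3 did not move in one direction over the classes. In keratinocytes it was at 221 and 376 CPM in Sham, 247 and 265 in IMQ, with 189.7 and 242 in IMQ+SHP099, with a log2 fold change of 0.11 (SE 0.28, adjusted p = 0.832, edgeR) and overlapping groups. In endothelial cells Socs3 was at 223 and 615 in Sham and 594 and 389 in IMQ, where the Sham libraries enclosed both IMQ libraries (0.33, SE 0.43, adjusted p = 0.778, edgeR). In mural cells it was at 639.5 and 713 in Sham and 288 and 333 in IMQ, a log2 fold change of -0.94 (SE 0.27, adjusted p = 0.339, edgeR), and DESeq2 called this difference (adjusted p = 0.0291). The list of 10 immediate-early and heat-shock genes summed in mural cells to 23339 and 17900 in Sham and 8417 and 9543 in IMQ, and its part in the Socs3 levels was not tested.

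The remaining pairs of Osmr and Il6ra that were to be reported overlapped between groups. Osmr in keratinocytes was at 29.2 and 45.9 CPM in Sham, 37.7 and 45.2 in IMQ, with 22.7 and 60.0 in IMQ+SHP099 (log2 fold change 0.46, SE 0.34, adjusted p = 0.411, edgeR, IMQ against Sham). Il6ra in myeloid cells was at 62.0 and 113 in Sham, 81.5 and 88.1 in IMQ, with 58.0 and 89.1 in IMQ+SHP099, with a log2 fold change of 0.17 (SE 0.36, adjusted p = 0.914, edgeR). Within macrophage-like cells Il6ra was at 89.7 and 152 in Sham and 108 and 117 in IMQ. The level of Il6ra in endothelial cells was 45.8 and 29.0 in Sham and 10.1 and 17.1 in IMQ, a log2 fold change of -1.30 (SE 0.40, adjusted p = 0.32, edgeR) that was not called.

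**Figure D5:**
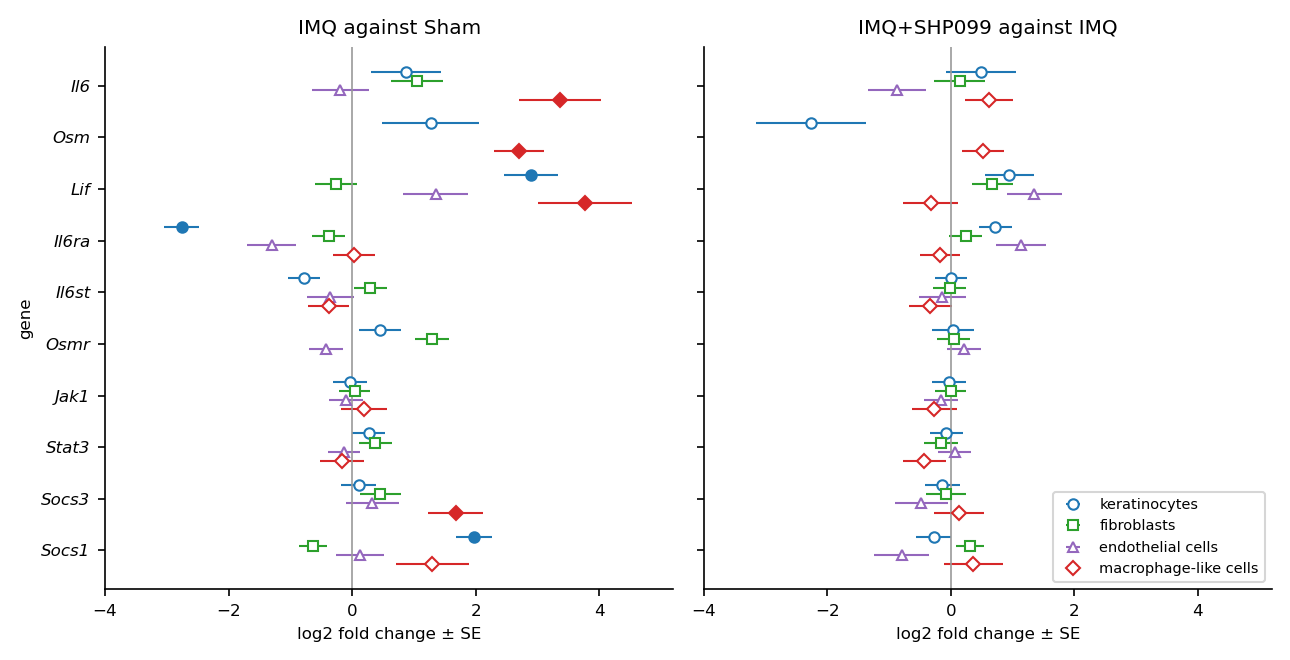
Log2 fold change ± SE of the members (rows) in keratinocytes, fibroblasts, endothelial cells and macrophage-like cells, for IMQ against Sham (left) and IMQ+SHP099 against IMQ (right). Filled symbols have an adjusted p under 0.05 (edgeR) and open symbols do not. The 7 filled symbols stand in the left panel only.

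The IMQ+SHP099 against IMQ comparison asked which genes change when SHP2 is inhibited during imiquimod treatment, and it uses the same 2 IMQ libraries as the comparison above. No member was called in any of the 74 pairs (edgeR), and 0% of the 97758 tests over all genes were. An unadjusted p under 0.05 (edgeR) was found in 5 pairs, 3 of 10 in keratinocytes and 2 of 9 in endothelial cells. Over all genes it was found for 336 of 14369 in keratinocytes and 253 of 10627 in endothelial cells. So few members support no statement on the list, and DESeq2 also called none. The median log2 fold change of the members was -0.01 in keratinocytes, 0.05 in fibroblasts and -0.17 in macrophage-like cells, beside 0.05, 0.02 and -0.02 over all genes.

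The pairs that had been called between IMQ and Sham had the following differences with SHP099. In keratinocytes the log2 fold change was 0.72 (SE 0.27) for Il6ra, 0.95 (SE 0.40) for Lif and -0.28 (SE 0.29) for Socs1. Both IMQ+SHP099 libraries lay above both IMQ libraries for Il6ra and for Lif, and 26.9% of the genes of keratinocytes showed such a separation in one direction or the other. In macrophage-like cells it was 0.61 (SE 0.39) for Il6, 0.52 (SE 0.34) for Osm, -0.32 (SE 0.44) for Lif and 0.13 (SE 0.41) for Socs3. The IMQ+SHP099 libraries enclosed the IMQ libraries for Il6, with levels of 24.5 and 70.8, and overlapped them for Lif and for Socs3, the latter with 371 and 553. For Osm both IMQ+SHP099 libraries lay above both IMQ libraries. Of the genes of macrophage-like cells with a mean of at least 5 CPM, 34.5% showed such a separation in one direction or the other.

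The difference with SHP099 was not large against its error in the other reported pairs. It was 0.14 (SE 0.42) for Il6 in fibroblasts, 0.05 (SE 0.27) for Osmr in fibroblasts and 0.04 (SE 0.34) for Osmr in keratinocytes on the log2 scale. Osm in myeloid cells differed by -0.08 (SE 0.43) and Il6ra in myeloid cells by -0.20 (SE 0.36). Stat3 and Socs3 in keratinocytes differed by -0.07 (SE 0.27) and -0.14 (SE 0.28), and Socs3 in endothelial cells by -0.48 (SE 0.43). Outside these pairs, Il6 in mural and endothelial cells was lower in each IMQ+SHP099 library than in either IMQ library. It differed by -0.92 (SE 0.80) and -0.86 (SE 0.47), neither of them called. Of genes with a mean of at least 5 CPM, 32.4% and 33.9% were separated there in one direction or the other. Il6 differed by 0.49 (SE 0.57) in keratinocytes, 0.14 (SE 0.84) in lymphocytes and -0.57 (SE 0.49) in myeloid cells.

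A list of 56 further genes of the pathway, other cytokines, receptors, kinases and STATs, inhibitors and genes that STAT3 is known to induce, was read beside the members. Of 377 tested pairs of a gene and a sum, 22 were called between IMQ and Sham, 17 higher and 5 lower, and 0 between IMQ+SHP099 and IMQ. In keratinocytes 9 of 50 rose and 2 fell, in fibroblasts 3 of 50 rose and 1 fell, in lymphocytes 1 of 45 rose, and in macrophage-like cells 4 of 44 rose and 2 fell. Over all genes 4.66% rose and 6.81% fell in keratinocytes, 0.348% and 0.279% in fibroblasts, 0.0103% and 0% in lymphocytes, and 4.02% and 5.26% in macrophage-like cells. The median log2 fold change of the list was 0.01 in keratinocytes, 0.00 in fibroblasts and 0.17 in macrophage-like cells.

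The acute-phase and iron-binding genes Saa3 and Lcn2 had the largest differences of that list. Saa3 in fibroblasts was at 13.0 and 10.4 CPM in Sham, 21624 and 9042 in IMQ, with 27875 and 8340 in IMQ+SHP099 (log2 fold change 10.41, SE 1.09, adjusted p = 0.0203, edgeR, IMQ against Sham). Lcn2 in fibroblasts was at 0.16 and 0.23 in Sham, 2805 and 1073 in IMQ, with 2357 and 837 in IMQ+SHP099, and Lcn2 in keratinocytes at 0.95 and 2.58, 359 and 327, and 430.1 and 412. In lymphocytes Saa3 was at 0 and 0 in Sham and 423 and 774 in IMQ. Saa3 and Lcn2 also rose in macrophage-like cells and Saa3 in keratinocytes. The part that free RNA from fibroblasts could have in the lower Saa3 and Lcn2 levels of other classes was not tested.

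Clcf1, a cytokine of the same family, rose in keratinocytes, from 6.49 and 5.21 CPM in Sham to 71.0 and 32.5 in IMQ, with 48.5 and 51.6 in IMQ+SHP099 (log2 fold change 3.40, SE 0.47, adjusted p = 0.00366, edgeR). Serpina3n, a protease inhibitor, Cebpd, a transcription factor, Vegfa, the vascular growth factor, Birc5, a cell division gene, and Bcl3, an NF-kB cofactor, also rose in keratinocytes, by 2.71, 2.38, 1.66, 1.61 and 1.24 on the log2 scale. In macrophage-like cells Cebpb, a transcription factor, rose from 644 and 1135 to 3500.5 and 3624, and Ptpn1, which encodes a phosphatase, from 122 and 106 to 255 and 322. Ccnd1, the cyclin D1 gene, fell in macrophage-like cells from 122 and 98.3 to 12.2 and 14.8 and in fibroblasts from 45.4 and 129 to 12.03 and 15.2. Il11ra1, the receptor chain for IL-11, fell in macrophage-like cells from 48.9 and 68.7 to 11.9 and 14.8. Cebpb, Ptpn1, Ccnd1 and Il11ra1 in macrophage-like cells stand beside the change of sub-clusters given above.

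Ptpn11, which encodes SHP2, the target of the drug, and is named here for that reason alone, was not called in any sum. Its log2 fold change was -0.27 (SE 0.24) for IMQ against Sham and 0.10 (SE 0.24) for IMQ+SHP099 against IMQ in keratinocytes, and 0.24 (SE 0.26) and 0.00 (SE 0.26) in fibroblasts. SHP099 blocks the enzyme and not its transcript, so the level of Ptpn11 is no check of the drug.

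The genes whose levels followed those of 4 members most closely were found by Pearson correlation of log2(CPM + 1) over 66 sums of 1 class and 1 library, among 11004 genes. For Osm they were Lilr4b, Ccl3 and Lilrb4a (r = 0.95 each), of which Ccl3 encodes a chemokine. For Osmr they were Kitl (0.91), Cc2d2a (0.91) and Npdc1 (0.90), with Kitl encoding the ligand of the receptor Kit. For Socs3 they were Spop (0.83), Atad1 (0.83) and Tmed7 (0.82), and for Il6 they were Gstm1 (0.80), Maob (0.78) and Ddah2 (0.78). Sums of 1 library share its depth and sums of 1 class share its cell type, so these values describe the sums and carry no p.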

How the data were processed

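Single-cell 3′ libraries (10x Genomics) of mouse back skin were analysed, 2 each for Sham, IMQ and IMQ+SHP099. The deposited matrices list, for each barcode, raw UMI counts of the genes. They are not normalized, as their whole-number values show. Per the labels and the study's methods, Cell Ranger was run on GRCm38 (mm10). Barcodes were kept with fewer than 100000 UMIs, fewer than 6500 genes and under 10% mitochondrial UMIs, the limits that the study states. No doublet caller was run, and 5 myeloid sub-clusters whose best-scoring class was not a myeloid one were taken out of their class. One of these, with 90 cells and led by Eno3, S1pr5 and Ace, had only 1 raised endothelial marker and also 1 raised macrophage marker. It held 0 and 1 cells in Sham, 24 and 34 in IMQ, with 2 and 29 in IMQ+SHP099. These cells were left out of the sum of myeloid cells, though they may be myeloid.

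Cells were clustered (scanpy 1.11.5, 3000 variable genes, 30 principal components, 20 neighbours, resolution 0.8) and named from fixed markers when at least 3 were raised and led the next class by 2. The margin was set after the clusters were seen, as were the list of immediate-early genes and the analysis without the Chil3 sub-cluster. A marker gate on single cells gave the same class for 99.2% of the 42619 cells that both methods named. UMI counts were summed per library and class and tested with edgeR 4.0.16 (quasi-likelihood, TMM, filterByExpr, all 6 libraries, group as the only term, Benjamini-Hochberg at 0.05). DESeq2 1.42.0 was an alternative, beside its size factors within edgeR, no filter, only the 2 groups compared, a replicate block, the marker gate, a mitochondrial limit of 5% and leaving out each library. Shares of cells with a UMI were computed after thinning cells to 2000 UMIs and, as alternatives, to 1000 and without thinning. An exact test of 2 libraries against 2 cannot give a p below 0.333, so none was used. The edgeR step was tested on simulated counts of keratinocytes, fibroblasts, macrophage-like and endothelial cells, with 200 genes changed between IMQ and Sham. It called 0% to 1.5% of these genes at a 2-fold change, 59% to 71% at 4-fold and 83.5% to 93% at 8-fold. Of the calls at 4-fold and 8-fold, 4.12% to 11.7% were false. A pair that was not called can therefore still differ by 2-fold, and also by 4-fold or 8-fold. The sums of mural cells, lymphocytes, myeloid cells and all cells were not simulated.

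The members and lists were chosen with earlier results of these data known. All members were named in every class, with a test for each called pair and for 8 fixed pairs. The tests of Il6st in keratinocytes, Socs3 in mural cells and Il6ra in endothelial cells were added after their values were seen. So were the differences of Il6 with SHP099 in mural cells, endothelial cells, keratinocytes, lymphocytes and myeloid cells. Of the pathway list, up to 12 called genes with a mean of at least 20 CPM in the sum were named, by the size of the fold change. Of 31053 gene identifiers, 30934 were found in the GENCODE annotation.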

Additional observations from a re-analysis of the deposited data

Results flagged for a closer look

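Socs3, Socs1 and Il6ra differed in opposite directions in different cell classes, in the sense that both libraries of one group lay on one side of the other group in 1 class and on the other side in another. The values are log2 ratios of the group means of CPM, and the differences between classes were not tested. Socs3 was higher in IMQ than in Sham in fibroblasts (0.37) and macrophage-like cells (1.43) and lower in mural cells (-1.12). Socs1 was higher in IMQ in keratinocytes (1.64), lymphocytes (0.56) and macrophage-like cells (1.83) and lower in fibroblasts (-0.71). With SHP099 added to imiquimod, Il6ra was higher than in IMQ in keratinocytes (0.59) and endothelial cells (1.13) and lower in macrophage-like cells (-0.22), and Socs1 was higher in fibroblasts (0.23) and lower in endothelial cells (-0.80). Such a separation of the libraries, in either direction, was found between IMQ and Sham in 62.8% of the genes with a mean of at least 5 CPM in keratinocytes, 32% in fibroblasts, 49.8% in mural cells, 43% in lymphocytes and 50.9% in macrophage-like cells. Between IMQ+SHP099 and IMQ the share was 33.9% in endothelial cells, 26.9% in keratinocytes, 34.5% in macrophage-like cells and 23.4% in fibroblasts. Of these ratios, Socs1 in keratinocytes and Socs3 in macrophage-like cells belong to a called pair of the IMQ against Sham comparison.

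Cells of clusters that could not be named, with the myeloid sub-clusters taken out of their class, entered the tests only within the sum of all cells. These unnamed cells had both IMQ libraries above both Sham libraries for 5 of the 10 members, as for 19% of the genes with a mean of at least 5 CPM there. Il6 averaged 99.7 CPM in IMQ and stood at 2.24 and 33.2 in the Sham libraries. Osm averaged 25.2 against 0.49 and 3.29, and Lif 9.50 against 1.36 and 3.72. Osmr averaged 78.3 against 23.6 and 34.4, and Jak1 172 against 133 and 157. The makeup of the unnamed cells was not held fixed between groups, and its part in these values was not tested.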

How the results depend on the processing

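The 7 member pairs called between IMQ and Sham became 10 with DESeq2, 7 with its size factors, 14 with no filter on low counts, 8 with only the 2 groups compared, 5 with the marker gate, 7 with the 5% mitochondrial limit and 3 without the Chil3 sub-cluster. How many genes were called at all also changed with the setting, as given below for DESeq2. The counts of members were not set against it and support no statement on the list. With 1 library left out the count lay between 4 and 9. It was 4 without Sham replicate 2, where all 4 macrophage-like pairs were lost, 4 without IMQ replicate 1 and 6 without IMQ replicate 2. For IMQ+SHP099 against IMQ the members had 0 calls in every setting, with 0 to 0 over the left-out libraries. The 22 pathway pairs became 54 with DESeq2, 65 with no filter and 42 with the replicate block, and 12 to 28 with 1 library left out (12 without IMQ replicate 1, 14 without IMQ replicate 2). With no filter 4 pathway pairs were called between IMQ+SHP099 and IMQ, and 0 in the other settings. Under DESeq2 the genes called in fibroblasts went from 90 to 670, and in macrophage-like cells from 808 to 300; without Sham replicate 2 they went to 3 and 24.

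The replicate numbers carry no label that pairs libraries. Deviations of same-numbered libraries from their group means correlated at 0.36 to 0.56 in all cells, 0.25 to 0.36 in lymphocytes and 0.23 to 0.33 in myeloid cells, but only at -0.010 to 0.18 in fibroblasts and 0.018 to 0.067 in macrophage-like cells. The replicate block gave 8 called member pairs, the 7 and Osm in myeloid cells (adjusted p = 0.049, edgeR).

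Osm in myeloid cells passed with only the 2 groups compared (adjusted p = 0.0233, edgeR), with no filter (5.5e-06), with DESeq2 (0.00018) and without either IMQ+SHP099 library (0.0222 and 0.0229). Osmr in fibroblasts passed with DESeq2 (adjusted p = 0.00124) and with no filter (0.00195, edgeR), and Il6 in fibroblasts with no filter (0.0253, edgeR). With the marker gate Il6 and Socs3 in macrophage-like cells were lost (adjusted p = 0.0816 and 0.0684, edgeR), and Lif there with DESeq2 (0.0764). The log2 fold change of Socs3 in keratinocytes, IMQ against Sham, was -0.050 with the 5% limit. For IMQ+SHP099 against IMQ, Osmr in keratinocytes was at -0.0084 with only the 2 groups compared and -0.027 with the replicate block, and Socs3 in macrophage-like cells at -0.077 without the Chil3 sub-cluster. With a library left out, the range for IMQ against Sham was -0.079 to 0.51 for Il6ra in myeloid cells and -0.13 to 1.07 for Socs3 in endothelial cells. For IMQ+SHP099 against IMQ it was -0.75 to 0.96 for Il6, -0.54 to 0.13 for Lif and -0.33 to 0.43 for Socs3 in macrophage-like cells, -0.28 to 0.45 for Il6 and -0.16 to 0.24 for Osmr in fibroblasts, -0.80 to 0.38 for Osm and -0.64 to 0.11 for Il6ra in myeloid cells, and -0.55 to 0.47 for Osmr and -0.18 to 0.039 for Stat3 in keratinocytes. The other fold changes of the 15 member pairs, called or fixed, kept their sign in every setting in which they could be fitted. Without the Chil3 sub-cluster Il6, Osm and Lif in macrophage-like cells could not be fitted, since they fell under the count filter. The cause of these changes was not tested.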

Other observations

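Socs3 was at a high level in 3 clusters that could not be named from the markers. They were led by Slc26a7 and Tnn (1708 CPM), by Myf5 and Pax7 (1534) and by Dbh and Corin (1507), over all libraries together. In the unnamed cells as a whole Socs3 was at 229.8 and 1022 in Sham, 1022 and 938 in IMQ, with 928 and 1191 in IMQ+SHP099.

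Langerhans-like cells, of which the libraries held 18 to 112, had Stat3 at 53.8 and 96.7 CPM in Sham, 146 and 160.2 in IMQ, with 187 and 117 in IMQ+SHP099, and Socs3 at 64.5 and 129, 534 and 221, and 660.2 and 559. For both genes the IMQ libraries lay above both Sham libraries, as for 19.6% of the genes with a mean of at least 5 CPM in that class. The class was not tested on its own, only as part of the sums of myeloid cells and of all cells.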
